A study of Mus musculus with 2 samples.

Results

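Sertoli cells are the somatic cells that enclose the germ cells in the testis cords, and 10 genes used as their markers in the fetal gonad were followed here: Sox9, Sox8, Amh, Ptgds, Cst9, Aard, Cldn11, Inhbb, Cbln4 and Gata4. Their probes were taken by gene symbol or gene ID from the table of the whole series, which gave 13 of 41174 probes and 9 of the 10 genes. That table names no gene for the 2 probes of Inhbb, which were added through the RefSeq accession that the array files carry. The tissue was the male gonad of MCH mice at embryonic day 14.5, and every sample carried a transgene that places a FLAG-tagged Nanos2, with its own 3′ untranslated region, under a Nanos2 enhancer. FLAG IP was the RNA recovered on agarose beads with the anti-FLAG M2 antibody, and input was RNA to which no antibody had been applied. Each group had 2 single-colour Agilent arrays, which the series calls biological duplicates, so n = 2 per group, and p-values measure the spread between these arrays only. No precipitate from gonads without the transgene was analysed here.

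Sertoli cells arise from the supporting cells of the XY gonad once Sry switches on Sox9, and Sox9 then acts with Nr5a1 and Gata4 on targets such as Amh. Differentiated fetal Sertoli cells secrete hormones and other proteins and build the cords, while the germ cells inside them make Nanos2, an RNA-binding protein that recruits a deadenylase complex to its bound transcripts. The comparison asks which transcripts make up a larger or smaller share of the RNA that came down with FLAG-tagged Nanos2 than of the gonad's RNA. All values are relative to the 75th percentile of the same array, on the log2 scale, and a log2 fold change is FLAG IP over input with its standard error (SE) from limma. The words fell and rose compare a share in the FLAG IP with that in the input, not expression or cell numbers between gonads. In the input, which is RNA of whole gonads, fewer cells of a type and less RNA per cell cannot be told apart. Some of these genes, Gata4 among them, are also expressed by other somatic cells of the gonad.

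FLAG IP replicate 1 was much dimmer than the other 3 arrays. The processed signal at the 75th percentile reached 55.7 and 608 intensity units on FLAG IP replicates 1 and 2, against 1026 and 1038 units on the input arrays. The scanner software marked 42.7% and 65.4% of spots as well above background in the FLAG IP and 66.0% and 70.2% in the input. Input replicate 1 was on a slide of its own and was scanned separately from the other 3 arrays. The number of arrays limits the precision of every value that follows.

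All 10 marker genes stood lower in the FLAG IP than in the input. Their share in the FLAG IP was 12.1% to 32.0% of that in the input, and the median log2 fold change was -1.94, against 0.07 for the 15472 genes tested. All 10 were called lower at an adjusted p below 0.05 (limma, Benjamini-Hochberg over all genes), 9 of 9 without Inhbb, where 25.4% of all genes were called lower and 28.2% higher. In all 10 genes both FLAG IP arrays lay below both input arrays, as they did in 38.1% of all genes, and the empty interval between the groups was 1.10 to 2.89 log2 units wide. At 4-fold or more stood 5 of the 10, against 7.54% of all genes that were called and at least 4-fold lower. Sox8, at 4.03-fold, was only just among these 5. Sox8 and Cbln4 entered the test only through the input, being well above background on 1 of 2 FLAG IP arrays. No probe as dim as Cbln4 in the input was detected on FLAG IP replicate 1, so its fall rests on FLAG IP replicate 2. The other 8 genes were well above background on all 4 arrays. The share of all genes called lower was 40.5% without FLAG IP replicate 1, 37.3% without FLAG IP replicate 2, 10.5% without input replicate 1 and 11.6% without input replicate 2, and the marker genes called were then 10, 10, 7 and 8. The fit without input replicate 1 is also the one within a single slide, in which all 10 genes stayed negative.

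**Figure D1:**
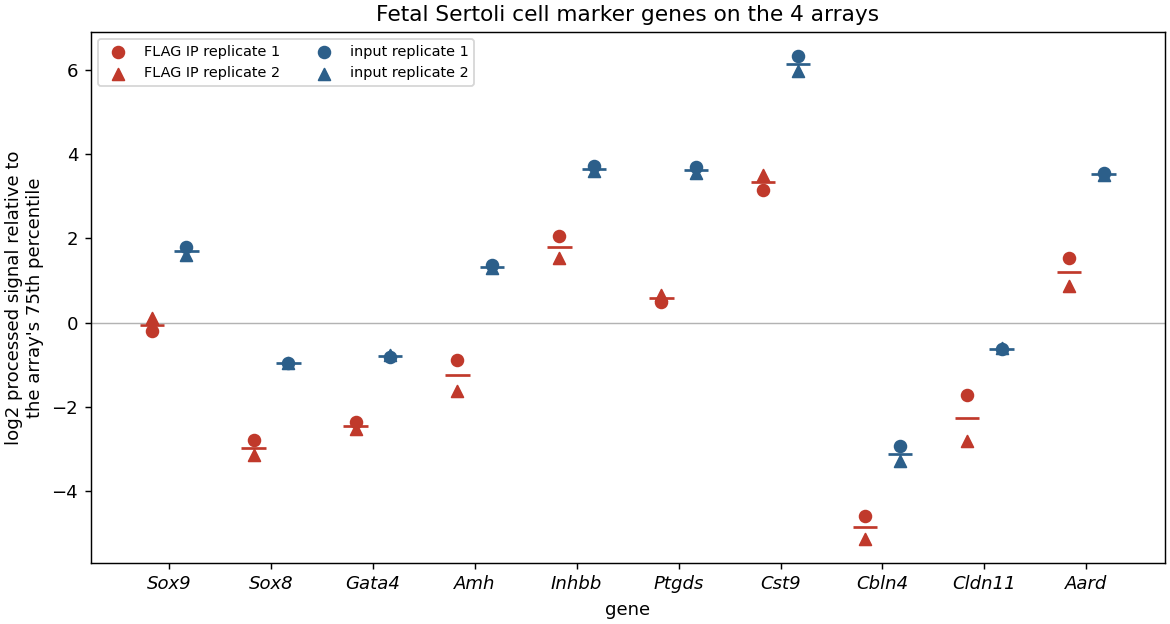
Level of each Sertoli cell marker gene on the 4 arrays, as log2 of the processed signal relative to the array's 75th percentile; points are arrays, red for FLAG IP and blue for input, and short lines are group means. In each gene both red points lie below both blue points, by 1.10 log2 units for Cldn11 and 2.89 for Ptgds, the narrowest and widest gaps; levels of different genes come from different probes and are not comparable.

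Of the transcription factor genes, Sox9 drives Sertoli cell fate. It read -0.21 and 0.12 in the FLAG IP, against 1.78 and 1.61 in the input. It fell by 1.74 ± 0.20 on the log2 scale (3.34-fold, adjusted p = 0.00537 in limma), and without input replicate 1 it stood at -1.65 with an adjusted p of 0.0522. Sox8, the SoxE relative that can partly stand in for Sox9 in the testis, read -2.79 and -3.15 in the FLAG IP and -0.96 on both input arrays. It fell by 2.01 ± 0.20 (4.03-fold, adjusted p = 0.00422 in limma), and on FLAG IP replicate 1 its probe gave 8.04 intensity units and was not well above background. Gata4, a zinc finger factor that the gonad needs to form and that Leydig and other somatic cells also make, read -2.35 and -2.53 in the FLAG IP, against -0.83 and -0.76 in the input. It fell by 1.65 ± 0.17 (3.13-fold, adjusted p = 0.00440 in limma), with -1.61 and an adjusted p of 0.0516 without input replicate 2. The input arrays lay closer together than the FLAG IP arrays for each of these 3 genes. Both FLAG IP arrays lay below both input arrays, as in 38.1% of all genes, and the groups did not overlap in either direction in 80.2%.

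The hormone genes were lower as well. Amh, the hormone that makes the Müllerian ducts regress, read -0.89 and -1.61 in the FLAG IP, against 1.36 and 1.29 in the input. It fell by 2.58 ± 0.30, to 16.8% of the input (adjusted p = 0.00542 in limma), and the FLAG IP arrays lay farther apart than the input arrays did. Inhbb encodes the beta B subunit shared by activin B and inhibin B. It read 2.04 and 1.53 in the FLAG IP, against 3.72 and 3.59 in the input, and fell by 1.87 ± 0.24, to 27.4% of the input (adjusted p = 0.00659 in limma).

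Other secreted products included the genes with the most negative changes among the 10. Ptgds, the synthase that makes prostaglandin D2 and that Sox9 activates, read 0.49 and 0.66 in the FLAG IP, against 3.69 and 3.56 in the input. It fell by 3.05 ± 0.17, to 12.1% of the input (adjusted p = 0.00376 in limma), and 0.834% of the genes tested had a more negative change. Cst9, the cystatin-family gene also called testatin, read 3.15 and 3.50 in the FLAG IP, against 6.31 and 5.97 in the input. It fell by 2.82 ± 0.23, to 14.2% of the input (adjusted p = 0.00378 in limma). Cbln4, a secreted protein of the cerebellin family, gave 2.31 and 17.5 intensity units in the FLAG IP, against 135 and 106 units in the input. On the scaled log2 axis its level was -4.59 and -5.12 in the FLAG IP, against -2.93 and -3.29 in the input. It fell by 1.75 ± 0.27 (adjusted p = 0.00993 in limma), and its change was -1.56 without input replicate 1. It was not well above background on FLAG IP replicate 1, where the lowest detected level of any probe was -2.77. Both input levels of Cbln4 lay below that level. FLAG IP replicate 1 could therefore not show a fall, which rests on FLAG IP replicate 2. With the median spot signal, normexp and an offset of 50 units in place of the processed signal, the log2 fold change of Cbln4 was 0.83 with an adjusted p of 0.466 in limma, so its direction was not the same under both.

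Cldn11 and Aard complete the set. Cldn11, a claudin of the tight junctions between Sertoli cells, had the widest disagreement between FLAG IP arrays. It read -1.73 and -2.80 in the FLAG IP, against -0.62 and -0.61 in the input, and fell by 1.64 ± 0.40, to 32.0% of the input (adjusted p = 0.0314 in limma). Its change had an adjusted p of 0.0779 without input replicate 1 and 0.0761 without input replicate 2, and 0.0806 with no filter on dim probes (limma). The change was -2.18 without FLAG IP replicate 1 and -1.11 without FLAG IP replicate 2. Aard, a gene of little-known function that is read in fetal Sertoli cells, read 1.54 and 0.86 in the FLAG IP, against 3.55 and 3.51 in the input. It fell by 2.33 ± 0.28, to 19.9% of the input (adjusted p = 0.00592 in limma).

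Log2 fold changes of the 10 genes lay between -3.05 and -1.64. The median log2 fold change was -1.74 for the 3 transcription factor genes and -2.58 for the 5 genes of secreted proteins (Amh, Ptgds, Cst9, Inhbb and Cbln4), among which Inhbb and Cbln4 lay close to the transcription factors. Whether the genes differed from each other was not tested. FLAG IP replicate 1 stood lower than FLAG IP replicate 2 for Sox9, Ptgds and Cst9 and higher for the other 7 genes. The median distance between the FLAG IP arrays was 0.44 log2 units for the 10 genes and 0.43 for all genes, and between the input arrays 0.10 and 0.08.

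Of the 10 genes, 4 had more than 1 probe, and in all 15 probes both FLAG IP arrays lay below both input arrays, as in 37.4% of all probes tested. Fitted one probe at a time, 14 of the 15 probes were called lower, where 22.4% of all probes tested were. Of these 14, 5 were not well above background on both FLAG IP arrays and so were tested only through the input, where they are high. The other 9 were the 9 probes well above background on all 4 arrays, a set in which 23.1% of all probes were called lower. The exception was the other Sox8 probe, A_52_P269667, at -1.44 ± 0.57 (adjusted p = 0.115 in limma over all probes). It gave 2.80 and 10.7 intensity units in the FLAG IP, against 77.2 and 89.6 in the input. The Sox9 probes differed more. A_52_P214630, which is spotted 10 times on each array, read 0.40 and 0.29 in the FLAG IP, against 1.10 and 1.10 in the input, and fell by 0.75 ± 0.16 (1.69-fold, adjusted p = 0.0295 in limma over all probes). The change of that probe was smaller by 0.99 log2 units than that of A_52_P577484, the probe that stands for Sox9 above. The difference between the probes did not overlap between the groups, although an exact test of 2 against 2 arrays cannot give a p below 0.333. How often probes of other genes differ in this way was not analysed here. The SD over its 10 spots was 0.21 and 0.07 log2 units on the FLAG IP arrays and 0.04 and 0.06 on the input arrays. The third Sox9 probe, A_51_P451606, was not well above background on either FLAG IP array. Its measured means were -5.30 in the FLAG IP and -3.46 in the input (adjusted p = 0.0438 in limma over all probes). With the dim arrays counted at no less than their lowest detected signal, it stood 1.84-fold lower in the FLAG IP. That value is not a strict bound, since an undetected probe can lie above the lowest detected one. It rests on FLAG IP replicate 2, where the probe was undetected at -5.91 and the lowest detected level was -5.97. On FLAG IP replicate 1 the lowest detected level, -2.77, lay above the probe's input levels of -3.41 and -3.51. Where in the transcript these probes lie was not analysed here.

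The second Gata4 probe, A_52_P4201, was also spotted 10 times. Its spots lay between 1.91 and 6.50 intensity units on FLAG IP replicate 1, where 0 of 10 were well above background. They lay between 69.1 and 82.3 units on FLAG IP replicate 2, and between 369 and 423 and between 441 and 515 units on the input arrays, where all 10 were well above background. It fell by 2.37 ± 0.44 on the log2 scale, against 1.65 ± 0.17 for the other Gata4 probe. The pair of Inhbb probes read a log2 fold change of -1.87 ± 0.25 and -2.12 ± 0.16, the second with 1 of 2 FLAG IP arrays well above background. The probes of Gata4 and of Inhbb had overlapping groups when their difference was taken array by array.

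**Figure D2:**
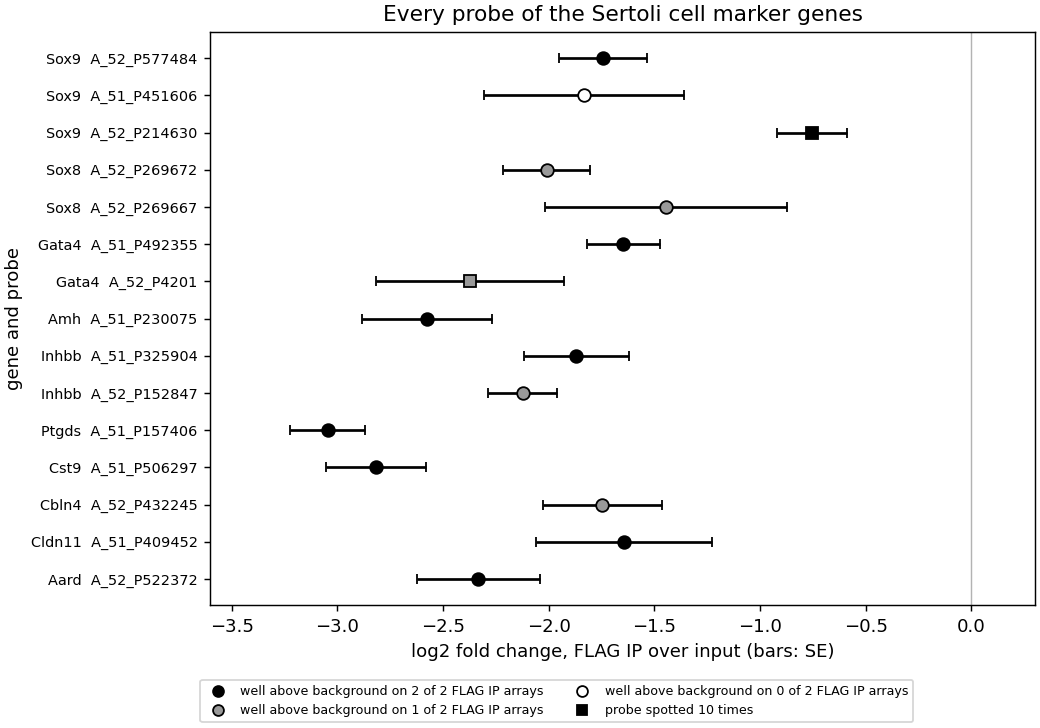
Log2 fold change of FLAG IP over input for each of the 15 probes, with the SE of a limma fit of every probe as bars; filling shows on how many of the 2 FLAG IP arrays the probe was well above background, and squares are probes spotted 10 times. All probes lie left of 0, from -3.05 for Ptgds to -0.75 for a Sox9 probe.

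Most other products of Sertoli cells were also lower in the FLAG IP. Of 24 tested, 21 fell and 1 rose and 2 missed the threshold, where 25.4% of all genes fell and 28.2% rose. The median log2 fold change of the 24 was -1.94. Defb19, a beta-defensin gene of Sertoli cells, read 1.53 and 1.46 in the FLAG IP, against 4.91 and 4.71 in the input, and fell by 3.31 ± 0.17 (adjusted p = 0.00376 in limma). Inha, the alpha subunit that turns a beta subunit such as that of Inhbb into inhibin, fell by 3.21 ± 0.20. Fgf9, the growth factor that sustains Sox9 in the early testis, was the exception, with 0.67 and 0.35 in the FLAG IP, against -1.75 and -1.66 in the input, and rose by 2.21 ± 0.20 (adjusted p = 0.00391 in limma). Trf, the transferrin gene, stood at 0.72 ± 0.61 and did not pass. Rhox8 was not analysed here.

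The regulators of testis determination and of the supporting lineage went both ways. Of 20 tested, 12 fell and 5 rose, 3 missed the threshold, and the median log2 fold change was -1.02, where 25.4% of all genes fell and 28.2% rose. Emx2 and Lhx9, homeobox genes of the early gonad, fell, with log2 fold changes of -2.65 ± 0.36 and -2.30 ± 0.21, and Emx2 was well above background on 1 of 2 FLAG IP arrays. Six4, a homeobox gene that acts upstream of Sry, rose by 2.31 ± 0.24 (adjusted p = 0.00446 in limma). Map3k4, a kinase gene needed for Sry expression, stood at 0.09 ± 0.16. Sry itself was not tested, since its probe was not well above background on both arrays of either group. Several of these genes are also expressed outside Sertoli cells, and what part other cells had in their values was not tested.

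The partners and relatives of single members did not all move the same way, and the shares called among the activin and GATA genes were near those of all genes, 25.4% lower and 28.2% higher. Of 13 genes for inhibin and activin subunits, receptors and inhibitors, without Inhbb, 4 fell and 5 rose, with a median of 0.18. The activin receptor gene Acvr2a rose by 2.27 ± 0.24 and Smad2, a transducer of activin signals, by 1.70 ± 0.16, whereas Smad3, the closely related transducer, fell by 1.77 ± 0.38. Inhba, the beta A subunit gene, fell by 1.41 ± 0.27. Fst, the activin-binding follistatin gene, stood at 0.06 ± 0.54 with 1 FLAG IP array well above background. Of 8 receptors and effectors of Amh, 1 fell and 1 rose, 6 missed the threshold, and the median log2 fold change was 0.02. Amhr2, the receptor gene specific to Amh, read 1.83 and 1.39 in the FLAG IP, against 3.99 and 3.87 in the input, and fell by 2.32 ± 0.22. Bmpr1b rose by 2.42 ± 0.66 with 1 FLAG IP array well above background, and Bmpr1a stood at -0.10 ± 0.17.

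Of 8 GATA factors and cofactors other than Gata4, 2 fell and 3 rose, with a median of 0.27. Gata6, which is coexpressed with Gata4 in the gonad, fell by 1.37 ± 0.18 and Zfpm2, the cofactor that binds Gata4, by 1.52 ± 0.16, while Gata3, a factor known from T cells and the nephric duct, rose by 2.44 ± 0.30 and the erythroid factor gene Gata1 by 1.23 ± 0.18. Gata5 stood at -0.15 ± 0.55. Of 18 claudins and tight junction genes other than Cldn11, 4 fell and 6 rose, with a median of 0.70. These shares were also near those of all genes, 25.4% lower and 28.2% higher. Cldn5, a claudin of endothelium, and Cldn15 fell, with log2 fold changes of -2.37 ± 0.37 and -1.35 ± 0.25, while Cldn10 and Cldn18 rose by 2.66 ± 0.22 and 2.09 ± 0.31, and Cldn6 stood at -0.06 ± 0.23. Cldn15, Cldn6 and Gata1 were well above background on 1 of 2 FLAG IP arrays and Gata5 on 0, so these entered the test through the input.

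The cystatin genes were mostly lower. Of 7 tested besides Cst9, limma called 6 lower and 0 higher, where 25.4% of all genes were called lower and 28.2% higher. At an unadjusted p under 0.05 in limma 0 were higher as well, and the median log2 fold change was -2.62. Cst8 and Cst11, reproductive-tract members of the family, fell, with log2 fold changes of -3.30 ± 0.19 and -2.98 ± 0.18. Cst11, and Cst13 among the 6 as well, were well above background on 1 of 2 FLAG IP arrays and entered the test through the input. Cst3, the widely expressed cystatin C gene, fell by 2.62 ± 0.31. Cst6, also well above background on 1 FLAG IP array, stood at -1.47 ± 0.50 and did not pass. Cystatin genes are related in sequence, and whether a probe reads more than 1 of them was not tested. Of the cerebellins, Cbln1 fell by 1.80 ± 0.26 and Cbln2 stood at 0.33 ± 0.48. Of 5 genes of prostaglandin synthesis and reception other than Ptgds, Ptges and Ptgs1, which encode a prostaglandin E synthase and a cyclooxygenase, fell, with log2 fold changes of -1.54 ± 0.17 and -1.07 ± 0.18, and Ptges was well above background on 1 of 2 FLAG IP arrays. Ptger4, a prostaglandin E receptor gene, rose by 0.91 ± 0.16, and Ptger2, not well above background on either FLAG IP array, stood at 0.61 ± 0.47.

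Markers of fetal Leydig, interstitial and endothelial cells were mostly lower too, and most germ cell markers were not. Of all genes, 25.4% were called lower and 28.2% higher. The fetal Leydig cell list had 9 genes tested, of which 8 fell, and its median log2 fold change was -2.46. Insl3, the hormone that guides testis descent, fell by 3.16 ± 0.16 and Cyp17a1, an enzyme of androgen synthesis, by 2.72 ± 0.22, while Fdx1, the electron donor of steroid synthesis, stood at 0.09 ± 0.48. In interstitial mesenchyme and muscle 13 of 14 genes fell and the median was -2.04, with the collagen genes Col3a1 and Col1a1 at -3.42 ± 0.16 and -3.13 ± 0.28 and the Hedgehog receptor gene Ptch1 at 0.21 ± 0.35. Of 10 endothelial genes 6 fell and the median was -1.45, with the receptor gene Tie1, well above background on 1 of 2 FLAG IP arrays, at -3.13 ± 0.18, the transcription factor gene Sox18 at -2.58 ± 0.19 and the adhesion gene Pecam1 at -0.07 ± 0.16. None of these 3 lists had a gene called higher in limma, and at an unadjusted p under 0.05 the number higher was 0 in each as well.

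Of 6 genes tested in the list for pregranulosa cells, 2 fell, 1 rose and 3 missed the threshold. Wnt4 and Rspo1, which act together in ovarian beta-catenin signalling, fell, with log2 fold changes of -2.59 ± 0.16 and -1.71 ± 0.21. The homeobox gene Lhx2 rose by 3.42 ± 0.21. Foxl2, the defining marker of those cells, was not well above background on both arrays of either group and was not tested. Germ cell markers numbered 18, of which 10 rose and 1 fell, where 28.2% of all genes rose and 25.4% fell. Their median log2 fold change was 0.997. Taf7l, a TFIID subunit gene of germ cells, rose by 3.53 ± 0.25 and the germ cell transcription factor gene Tfap2c by 2.38 ± 0.31. Dnd1, an RNA-binding protein gene of germ cells, fell by 0.78 ± 0.19, and the pluripotency gene Pou5f1 stood at -0.01 ± 0.47. Gene lists were compared by counts and medians only, and no test of a difference between them was made.

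**Figure D3:**
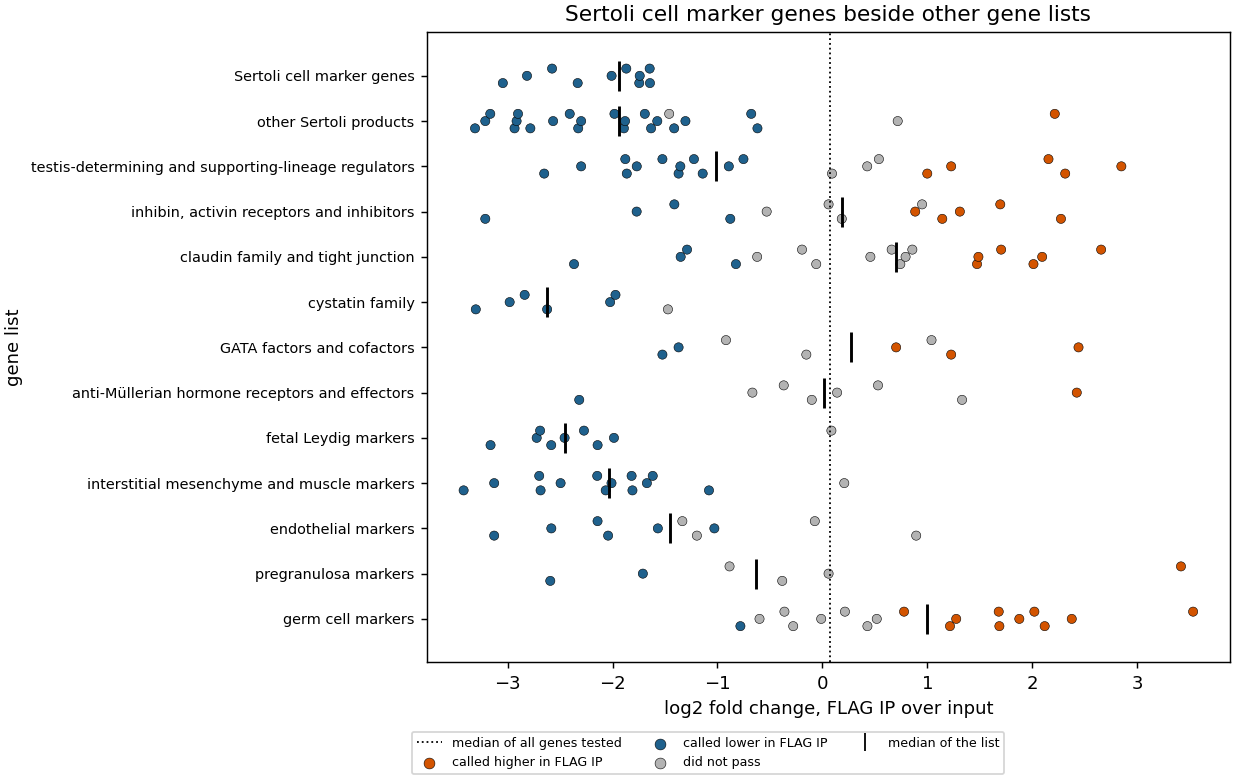
Log2 fold change of FLAG IP over input for each tested gene of the Sertoli cell markers (top) and of other lists; blue was called lower, orange higher, grey did not pass, bars are list medians and the dotted line is the median of all genes, 0.07. The 10 Sertoli cell markers lie between -3.05 and -1.64, while the receptor, claudin and GATA lists lie on both sides of 0.

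Of the 10 calls, 5 were lost when the arrays were read from the median spot signal with normexp and an offset. Processed signals on FLAG IP replicate 1, the dimmest array, were 2.31, 8.04, 10.9, 16.8 and 30.2 intensity units for Cbln4, Sox8, Gata4, Cldn11 and Amh, after subtraction of the background, whose median over spots was 62.0 units there. They were 48.3, 78.4, 162, 229 and 496 units for Sox9, Ptgds, Aard, Inhbb and Cst9. With normexp on the median spot signal and an offset of 50 units, which changes the signal read as well as its background correction, the first 5 genes were no longer called (adjusted p = 0.0704 to 0.543 in limma), while the other 5 were. Which of these changes, or the low signal itself, accounts for the losses was not tested. In that fit 9.15% of all genes were called lower. Sox8 then stood at -0.52, Gata4 at -0.57, Cldn11 at -0.94 and Amh at -1.92, where the median of all genes was 0.38. In the fit restricted to probes well above background on all 4 arrays, 8 genes remained and 8 were called lower, against 27.7% of all genes. The authors' deposited table, which holds 1 pooled ratio per probe, gives a ratio of FLAG IP to input of 0.112 for Ptgds, 0.154 for Amh and 0.295 for Cldn11.

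**Figure D4:**
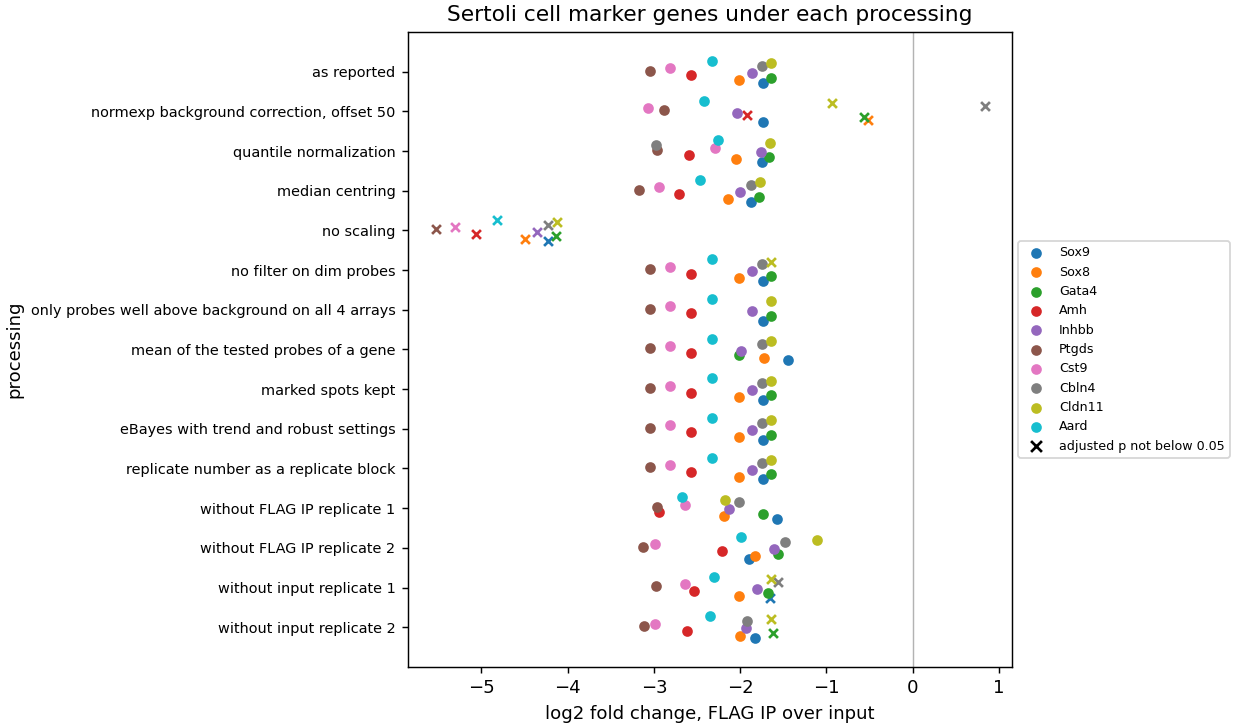
Log2 fold change of each Sertoli cell marker gene, FLAG IP over input, under each way of processing the arrays; crosses mark an adjusted p that is not below 0.05. The values lie left of 0 except that of Cbln4 after normexp on the median signal, at 0.83, and those with no scaling lie farthest left, at -5.53 to -4.13.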

How the data were processed

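Cy3-labelled cRNA was made with a low-input single-colour kit, per the labels' protocols. Per the file headers, Agilent Feature Extraction 9.5 gave the deposited intensity of each spot as a background-corrected processed signal. The table deposited by the authors holds mean intensities per group, within 1% of the mean of the 2 arrays for 99.8% (FLAG IP) and 99.9% (input) of probes, and a ratio with an unstated scaling.

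Values were log2 processed signals minus the 75th percentile of the non-control spots of each array. Spots marked as outliers (52 to 104 an array) were left out, and spots of a probe averaged. A probe was tested where both arrays of a group, FLAG IP or input, read it well above background, and the probe with the highest mean stood for the gene. Of 41174 probes, 31004 were named by gene ID, 155 by symbol, 309 by an older symbol and 531 by RefSeq accession (assembly GRCm38.p6), 1108 kept the file's name and 8067 had none. FLAG IP was fitted against input in limma 3.58.1 (R 4.3.3, two-sided, 2 residual and 2.09 prior degrees of freedom) on 15472 genes. The limma fit was tested on simulated gene values, a test that did not cover the scaling, the background filter, the probe choice or the naming.

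The members and lists were chosen with earlier results of these data known. From each list other than the members, the text names the genes with the 2 lowest and the 2 highest changes that passed and the unpassed gene nearest 0, plus close relatives of members. One gene that this rule names is not reported here. The alternatives were other background correction, normalization, filters, probe rules, eBayes settings, blocks and each array left out.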

Additional observations from a re-analysis of the deposited data

How the results depend on the processing

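All 10 Sertoli cell marker genes kept a negative log2 fold change under each of the 15 alternatives that could test them, except Cbln4, which stood at 0.83 after normexp, which here also replaced the processed signal by the median spot signal and added an offset of 50 units. The number called lower was 5 after normexp and 0 with no scaling, where limma called 0 genes lower and 0 higher of all genes (4069 and 0 at an unadjusted p under 0.05, all 10 markers among the lower ones) and the median of the 10 was -4.43 and that of all genes -2.41. It was 9 with no filter on dim probes (without Cldn11, adjusted p = 0.0806, where 13.9% of all genes were called lower), and 7 within the slide that holds both groups, which leaves out input replicate 1. With 1 array left out the count was 7 to 10 and the median -2.18 to -1.87, where a single array was taken to have the spread of the group with 2, and 0 markers were called higher in any fit. Of all genes, 3927 were called lower and 4358 higher, against 1415 and 1297 after normexp, and 1622 and 1534 without input replicate 1. Leaving out input replicate 2 gave 1800 and 1606, leaving out FLAG IP replicate 1 gave 6271 and 6307, and leaving out FLAG IP replicate 2 gave 5769 and 6948. Same-numbered arrays hardly deviated together (r = 0.05 over genes), and the replicate block left 10 markers called lower with a median of -1.94, and 3914 and 4218 genes. The median centring gave 28.1% of genes lower and 25.3% higher. Slide as a random block gave no value, because 4 arrays are too few to estimate its correlation. Cbln4 and Sox8 were not well above background on FLAG IP replicate 1, and the calls of Cbln4, Sox8, Gata4, Cldn11 and Amh did not hold under normexp.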
